A study of Mus musculus with 4 samples.

Results

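A set of 36 genes of cell adhesion, extracellular matrix and axon guidance was examined in 46C mouse ESCs (mESCs) after inhibition of protein kinase C (PKC). The genes were those listed in the deposited table whose symbols name protein-coding genes of 14 families, namely claudins, cadherins, protocadherins, collagens, laminins, integrins, semaphorins, plexins, Eph receptors, ephrins, Slits, Robo receptors, netrins and Unc5 receptors. They were 36 of the 1577 genes for which the deposited table gives values. In the GENCODE M21 annotation of GRCm38, 286 protein-coding symbols match the same families, and the others were not analysed here.

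Total RNA was sequenced from cells of the 46C mESC line. They were kept in control medium (NT, no treatment, 2 samples) or exposed to 5 μM Go6983 for 24 h (2 samples). Go6983 is a small-molecule inhibitor of several PKC isoforms. Whether NT cells received the solvent of Go6983, and whether leukemia inhibitory factor was present, is not given in the sources used here. All 4 samples were of the same line, and the labels give no allele or genetic change that separates them. The labels do not say whether the 2 samples of a group were separate cultures, so p-values measure only the spread between these samples, which may be technical. Values are normalized read counts, that is, reads per gene divided by a size factor for the library, and fold changes are differences of log2(normalized count + 1), which understate the change of genes with low counts.

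Cadherins and protocadherins are transmembrane proteins that hold neighbouring cells together through their extracellular repeats, and claudins form the strands of tight junctions. Collagens and laminins build the matrix and the basement membrane, to which cells attach through integrins. Netrins, Slits, semaphorins and ephrins are guidance cues, first known from growing axons, that are read by Unc5, Robo, plexin and Eph receptors on the responding cell.

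Promoters are shown for type II cadherin genes, because this subfamily held changes in both directions. *Cdh9* and *Cdh10* are also neighbours on chromosome 15, with 0 protein-coding genes and 1961853 bp between them. The sequences below are the 250 bases before the transcription start given by RefSeq on GRCm38.p6. Only the first window listed for each gene was used, and any other starts were left out. They run 5′ to 3′ on the strand of the gene, with CG dinucleotides in capitals. In GENCODE M21 the *Cdh10* gene starts farther upstream, at 18818947, so its window lies inside that gene. The windows of *Cdh9* and *Cdh22* reach past the GENCODE starts, at 16728756 and 165234853. *Cdh8* (chr8:99416472-99416721, minus strand), *Cdh9* (chr15:16728665-16728914, plus strand) and *Cdh10* (chr15:18820079-18820328, plus strand) were lower with Go6983, and *Cdh22* (chr2:165234738-165234987, minus strand) was higher.
Cdh8: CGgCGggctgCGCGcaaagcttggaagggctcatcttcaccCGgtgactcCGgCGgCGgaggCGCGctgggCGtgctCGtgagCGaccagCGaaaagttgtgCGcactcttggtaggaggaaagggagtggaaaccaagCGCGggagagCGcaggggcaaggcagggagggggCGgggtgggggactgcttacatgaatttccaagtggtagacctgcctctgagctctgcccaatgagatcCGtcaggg
Cdh9: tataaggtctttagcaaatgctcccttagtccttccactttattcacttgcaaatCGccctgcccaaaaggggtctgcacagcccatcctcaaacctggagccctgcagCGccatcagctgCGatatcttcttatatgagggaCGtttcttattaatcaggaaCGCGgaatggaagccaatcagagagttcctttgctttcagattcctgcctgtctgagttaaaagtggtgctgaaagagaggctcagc
Cdh10: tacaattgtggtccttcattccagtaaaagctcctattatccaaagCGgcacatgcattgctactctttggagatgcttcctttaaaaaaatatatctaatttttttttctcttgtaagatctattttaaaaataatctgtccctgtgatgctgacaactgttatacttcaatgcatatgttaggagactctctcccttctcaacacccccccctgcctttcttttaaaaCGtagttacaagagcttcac
Cdh22: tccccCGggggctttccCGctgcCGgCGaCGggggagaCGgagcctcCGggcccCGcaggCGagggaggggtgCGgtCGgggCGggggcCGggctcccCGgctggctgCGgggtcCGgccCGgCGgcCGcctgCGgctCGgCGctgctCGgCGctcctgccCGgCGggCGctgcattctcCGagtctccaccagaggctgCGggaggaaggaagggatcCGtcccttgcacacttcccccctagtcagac
The window of *Cdh22* held 30 CG dinucleotides at a GC content of 77.6%, that of *Cdh8* held 20 at 64.4%, that of *Cdh9* held 6 at 48.0% and that of *Cdh10* held 2 at 36.8%. The 3 genes that were lower therefore had windows of 2 to 20 CG dinucleotides, beside a median of 6 over 27025 promoters. The lowest of these, that of *Cdh10*, is the window that lies inside the GENCODE gene. Windows of cadherin genes that were higher differed too. That of *Cdhr4*, a cadherin-related gene outside the subfamily and not printed, held 2 at 52.0%. *Cdh19* had no entry.

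Every listed gene had been selected by the authors for a change of at least 2-fold between the same 4 samples. Calls for the 36 genes are therefore given as a description and cannot show that these families respond more than others. All 36 passed an adjusted p of 0.05 (limma, Benjamini-Hochberg over all listed genes), as did 98.5% of all listed genes. In all 36 genes both samples of one group lay beyond both of the other, as in 99.7% of all listed genes. Of the 36 genes, 23 were higher (63.9%) and 13 were lower with Go6983, beside 68.8% and 29.7% of all listed genes called in each direction. The median log2 fold change was 1.19 over the 36 genes and 1.21 over all listed genes.

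Counts were then taken by group of families. The 18 cell-cell adhesion genes had 8 higher and 10 lower, with log2 fold changes from -3.40 to 3.04 and a median of -1.26. Since no listed gene lies near 0, the median of a near-even split lands on the side with more genes. All 6 matrix genes were higher, with a median of 1.26, and 9 of 11 guidance genes were higher, with a median of 1.25. The single integrin gene was lower. No test of these splits was made, and with so few genes listed per family they describe the listed genes only. In bulk RNA, fewer cells of a type and less RNA per cell cannot be told apart.

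**Figure D1:**
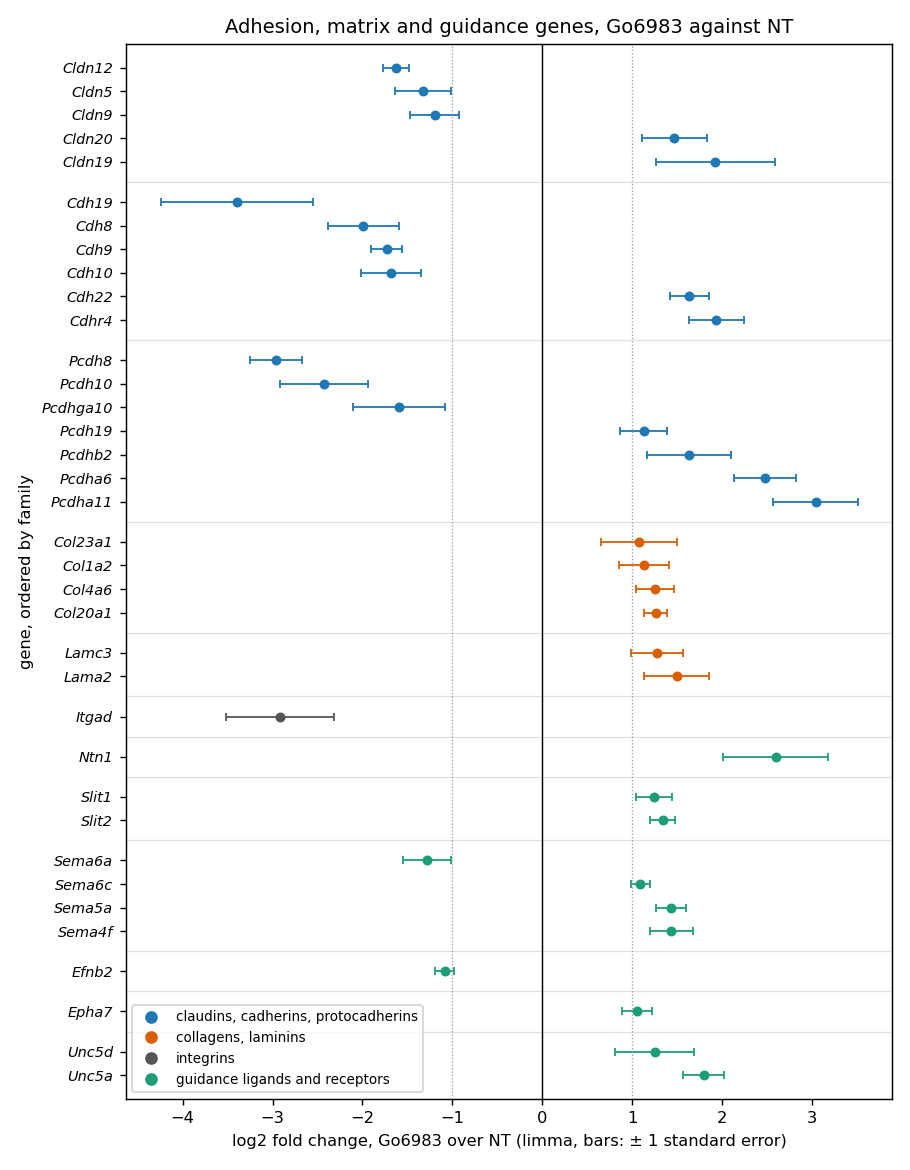
Log2 fold change of each of the 36 genes, Go6983 over NT (x axis), with bars of ± 1 standard error from limma (n = 2 samples per group) and genes ordered by family (y axis). Dotted lines mark 2-fold. All 6 collagen and laminin genes lie to the right of 0, while claudins, cadherins and protocadherins lie on both sides.

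Reads in the listed genes, which are only part of each library, ranged from 859777 to 1054236 per sample, and the total depth is unknown. Among markers of other cell types, 2 of 17 fibroblast and feeder markers were listed (*Fn1* and *Col1a2*, itself one of the collagen genes). Their summed normalized count was 47759.9 to 52273 in NT and 109338 to 111903 with Go6983, nearly all of it from *Fn1*. *Col1a2* had only 31.8 and 40.9 in NT and 78.4 and 82.4 with Go6983. For trophoblast, 3 of 12 markers were listed, summing to 1859 to 1962 in NT and 4766.5 to 5161 with Go6983. For primitive endoderm 1 of 22 was listed (*Lrp2*), at 9479 to 11625 in NT and 3568 to 3942 with Go6983, and for neural cells 3 of 15, at 2509 in each NT sample and 2252 and 3124 with Go6983. The neural sum joins falls of *Neurod1* and *Pax6*, log2 fold changes of -1.90 and -1.39, with a rise of *Ncam1*. Of 18 pluripotent cell markers 4 were listed, at 55513 to 55944 in NT and 88977 to 92466 with Go6983. Of these, *Nanog*, *Klf4* and *Tfcp2l1* were higher and *Utf1* was lower, with a mean of 22374 normalized counts in NT and 10135 with Go6983. The other markers have no value here, and no listed marker sum was at 0. The part of these shifts in the results below was not tested.

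Among the claudins, 3 were lower and 2 were higher. *Cldn12*, a claudin of many epithelia (chr5:5489537-5514958, minus strand, GRCm38), had 2474 and 2353 normalized counts in the NT samples and 891 and 685 with Go6983. It fell by 1.63 on the log2 scale (SE 0.147, limma adjusted p = 0.000447), and its 2 NT samples lay close together. Per kilobase of exon it was the highest of the 36 genes in NT cells, at 571 normalized counts per kb, against 186 with Go6983.

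*Cldn5*, the main claudin of the endothelial barrier of the brain, was far less abundant, with 81.6 and 64.4 normalized counts in NT and 32.7 and 24.6 with Go6983. *Cldn9*, a claudin of the inner ear, had 92.5 and 73.6 in NT and 34.5 and 36.4 with Go6983. Both were lower in each Go6983 sample, and they fell by 1.32 and 1.20 on the log2 scale (SE 0.313 and 0.272). *Cldn19*, a claudin of the kidney tubule, was higher with Go6983, with 38.8 and 9.20 in NT and 85.9 and 66.4 after treatment (log2 fold change 1.93, SE 0.663, limma adjusted p = 0.0311). Its NT samples differed 4.22-fold, and without NT replicate 2 the log2 fold change was 0.94 (limma adjusted p = 0.0773). *Cldn20* was low in all samples, at 11.9 to 17.4 in NT and 40.7 to 42.9 with Go6983.

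In the cadherin family the type II cadherins, a subfamily best known from neurons, were lower in 4 of 5 cases. *Cdh9*, which acts in the choice of synaptic partners, had 649.4 and 490.5 normalized counts in NT and 172 and 167 with Go6983. It fell by 1.73 on the log2 scale (SE 0.174, limma adjusted p = 0.000498), and its 2 Go6983 samples were nearly equal. Its neighbour *Cdh10* had 104 and 67.4 in NT and 24.3 and 26.8 with Go6983. The fall of *Cdh10*, 1.68 on the log2 scale (SE 0.330), was within 1 standard error of that of *Cdh9*, although its level was 8.55 normalized counts per kb of exon in NT against 161 for *Cdh9*. The promoter windows of both genes are among those printed above.

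*Cdh8* had 54.7 and 60.3 normalized counts in NT and 10.3 and 18.2 with Go6983, a fall of 1.99 on the log2 scale (SE 0.396). *Cdh19*, a cadherin of the Schwann cell lineage, was at the limit of these counts, with 49 reads over the NT samples and 5 over the Go6983 samples. The ratio of its normalized reads was 0.101, with a 95% interval of 0.0314 to 0.252 that covers counting error only. *Cdh22* was the type II cadherin that was higher, with 101.4 and 72.6 normalized counts in NT and 261 and 277 with Go6983 (log2 fold change 1.64, SE 0.216, limma adjusted p = 0.00119).

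The remaining gene of this family, *Cdhr4*, is a cadherin-related gene outside the classical types. It had 35.8 and 60.3 normalized counts in NT and 162 and 202 with Go6983 (log2 fold change 1.94, SE 0.311). Its exons overlap the readthrough genes *Gm20661* (18.5% of its exonic bases) and *Gm20662* (28.8%), so reads may be shared with them. Strand handling in the counting is not given in the sources used here.

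**Figure D2:**
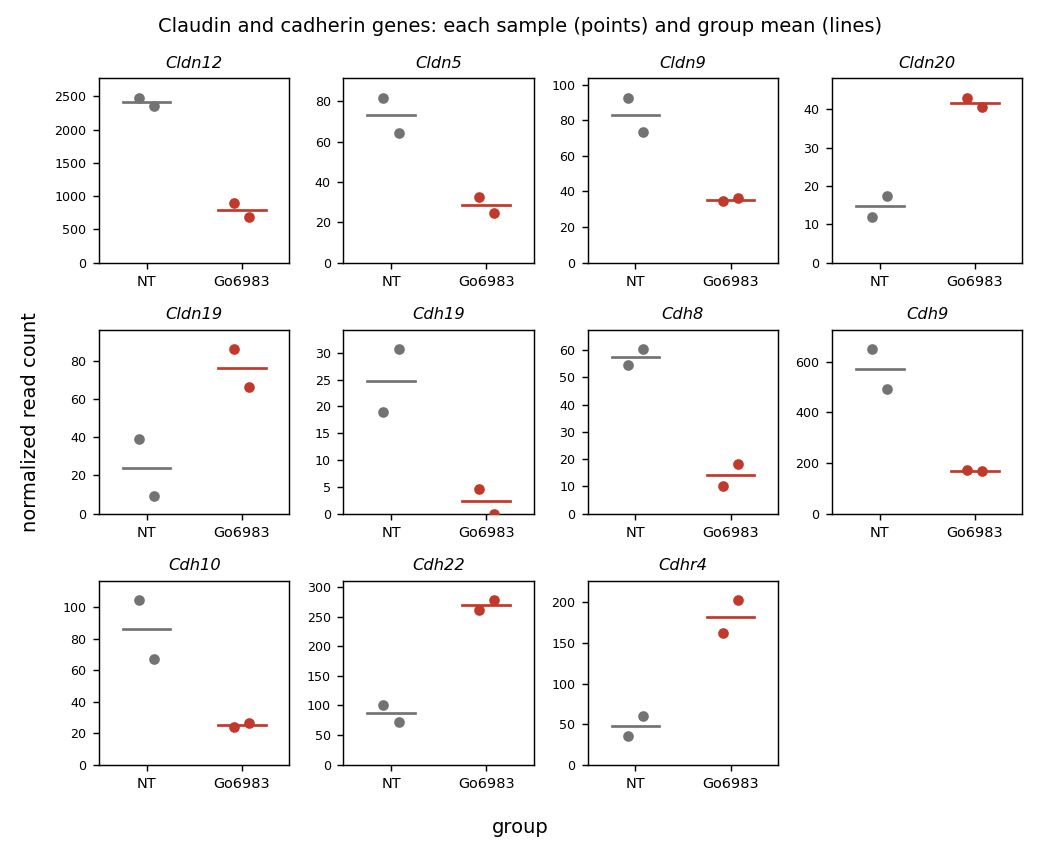
Normalized read counts (y axis, linear, a scale for each gene) of the claudin and cadherin genes in the NT and Go6983 samples (x axis). Points are samples and lines are group means (n = 2 per group). In every panel both points of one group lie beyond both of the other.

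Of the 7 protocadherins, 4 were higher and 3 were lower. Among the nonclustered genes, *Pcdh8*, known from the paraxial mesoderm of the embryo (chr14:79766775-79771312, minus strand, GRCm38), had 435 and 309 normalized counts in NT and 56.9 and 37.5 with Go6983. Among the members with a mean of 50 normalized counts or more in the higher group, it fell by 2.96 on the log2 scale, the most of these genes (SE 0.286, limma adjusted p = 0.000485). An antisense transcript, *Gm9748*, overlaps 9.61% of its exonic bases. *Pcdh10*, which is expressed in the developing brain, was lower too, at 46.7 to 53.1 in NT and 5.35 to 13.1 with Go6983. *Pcdh19*, an X-linked gene mutated in an epilepsy of early childhood, was higher, with 111 and 70.5 in NT and 192 and 198 with Go6983 (log2 fold change 1.13, SE 0.258).

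The clustered protocadherins, whose many isoforms give neurons an identity of their own, were listed with 4 genes, all on chromosome 18. *Pcdha6* had 8.95 and 11.2 normalized counts in NT and 56.0 and 65.3 with Go6983, a log2 fold change of 2.48 (SE 0.348, limma adjusted p = 0.00149). *Pcdha11* had 6 reads over the NT samples and 67 over the Go6983 samples, a normalized ratio of 11.1 (95% counting interval 4.82 to 31.2). A further gene ID in the annotation carries the symbol *Pcdha11* and has no value here, so the symbol alone does not identify the listed gene. *Pcdha6* and the listed *Pcdha11* are not independent. They share 2860 bp of exon with each other and with the other alpha genes, 53.3% and 53.4% of their exonic bases. *Pcdhb2*, at 5.11 to 10.9 in NT and 22.5 to 28.9 with Go6983, was higher as well.

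*Pcdhga10* went the other way, with 59.7 and 154 normalized counts in NT and 25.2 and 38.5 with Go6983 (log2 fold change -1.59, SE 0.508, limma adjusted p = 0.0242). Its NT samples differed 2.59-fold, and without NT replicate 2 it fell by 0.92 (limma adjusted p = 0.147). The gene shares 44.8% of its exonic bases with the other gamma genes and 55.2% with a transcript on the opposite strand, so its counts are uncertain.

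All 6 matrix genes were higher with Go6983, 4 collagens and 2 laminins. *Col20a1*, a collagen that associates with fibrils, was the most abundant of them per length, at 75.8 normalized counts per kb of exon in NT and 183 with Go6983. Its normalized counts were 388 and 391 in NT and 864 and 1019 with Go6983 (log2 fold change 1.27, SE 0.127, limma adjusted p = 0.000491). *Col4a6*, a chain of the basement membrane collagen type IV, had 79.6 and 62.3 in NT and 167 and 173 with Go6983, a log2 fold change of 1.26 (SE 0.212). *Col1a2*, a chain of the fibrillar collagen type I and one of the fibroblast markers above, had 31.8 and 40.9 in NT and 78.4 and 82.4 with Go6983 (log2 fold change 1.13, SE 0.275).

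*Col23a1*, a transmembrane collagen, had the weakest call of the 36 genes. It had 52.7 and 24.5 normalized counts in NT and 67.2 and 88.8 with Go6983 (log2 fold change 1.08, SE 0.426, limma adjusted p = 0.0478). The 2 nearest samples of opposite groups differed 1.28-fold, less than the 2.15-fold between the NT samples, and without NT replicate 2 the log2 fold change was 0.54 (limma adjusted p = 0.194). With the replicate number as a block its adjusted p was 0.0719. Among the laminins, *Lamc3*, a gamma chain, had 28.8 and 24.5 in NT and 64.4 and 67.4 with Go6983 (log2 fold change 1.28, SE 0.290), and *Lama2*, the alpha chain of muscle and nerve basement membranes, was below 50 in all samples, at 13.3 to 19.9 in NT and 46.0 to 49.5 with Go6983.

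The integrins gave 1 gene, *Itgad*, an alpha subunit of leukocytes. It had 24 reads over the NT samples and 2 over the Go6983 samples, a normalized ratio of 0.0825 (95% counting interval 0.00944 to 0.332). It was lower, but its level was under 1 normalized count on average with Go6983, and 8.60% of its exonic bases overlap a transcript on the opposite strand.

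**Figure D3:**
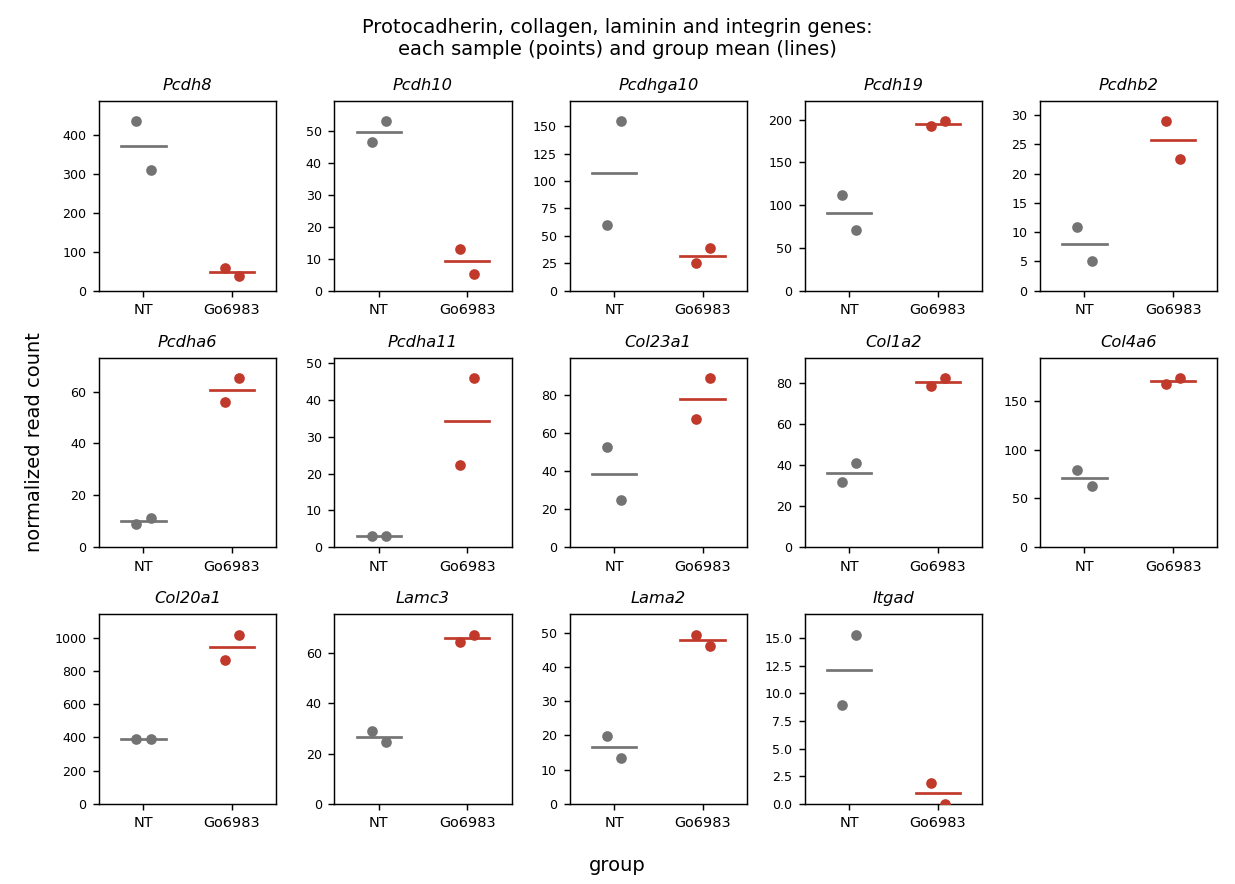
Normalized read counts (y axis, linear, a scale for each gene) of the protocadherin, collagen, laminin and integrin genes in the NT and Go6983 samples (x axis). Points are samples and lines are group means (n = 2 per group). The 6 collagen and laminin panels all rise from NT to Go6983, and the 2 NT points of *Pcdhga10* and *Col23a1* lie apart.

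Of the guidance ligands, 6 were higher and 2 were lower. *Ntn1*, the secreted ligand netrin-1 (chr11:68209364-68400823, minus strand, GRCm38), had 562 and 2120.3 normalized counts in NT and 6156.5 and 7107 with Go6983. The groups did not overlap, but the NT samples differed 3.77-fold while the Go6983 samples differed 1.15-fold. The log2 fold change was 2.60 (SE 0.580, limma adjusted p = 0.00803). Leaving out NT replicate 1 gave 1.64, and leaving out NT replicate 2 gave 3.56, both past the threshold, while leaving out Go6983 replicate 1 or 2 gave 2.70 and 2.49, with adjusted p of 0.137 and 0.157. *Ntn1* had the highest level per length of the 36 genes after treatment, at 1056.5 normalized counts per kb of exon against 214 in NT.

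Both listed Slit genes, which encode secreted ligands of Robo receptors, were higher. *Slit2* had 349 and 285 normalized counts in NT and 772 and 829.5 with Go6983 (log2 fold change 1.34, SE 0.143, limma adjusted p = 0.000587). *Slit1* had 107 and 127 in NT and 316.5 and 245 with Go6983 (log2 fold change 1.25, SE 0.198). The changes of the 2 genes lay within 1 standard error of each other. No Robo gene has a value here.

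The 4 listed semaphorins are all transmembrane members of the family, which signal through plexins, and no plexin has a value here. *Sema6c* had 584 and 625 normalized counts in NT and 1269 and 1313 with Go6983, and it was the most tightly measured of the guidance genes that were higher (log2 fold change 1.09, SE 0.103, limma adjusted p = 0.000484). *Sema5a*, which carries thrombospondin repeats, had 128 and 117.5 in NT and 305 and 365 with Go6983. *Sema4f* had 144 and 93.0 in NT and 329 and 304 with Go6983. These 2 genes rose by similar amounts, 1.435 and 1.44 on the log2 scale (SE 0.167 and 0.240).

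*Sema6a*, of the same class as *Sema6c*, was lower, with 470.4 and 791 normalized counts in NT and 273.5 and 229 with Go6983 (log2 fold change -1.28, SE 0.263, limma adjusted p = 0.00608). The fall was 0.91 once NT replicate 2 was left out, and 1.66 once NT replicate 1 was. *Sema6c* and *Sema6a* thus moved in opposite directions in the same samples, and per length *Sema6c* went from 102 to 217.5 normalized counts per kb while *Sema6a* went from 71.8 to 28.6.

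The other ligand that was lower was *Efnb2*, a transmembrane ephrin that can also signal into the cell that carries it. It had 3268 and 3039.9 normalized counts in NT and 1553 and 1418 with Go6983, a fall of 1.09 on the log2 scale (SE 0.101, limma adjusted p = 0.000471). Per length it was the second most abundant of the 36 genes in NT, at 460.1 normalized counts per kb against 217 with Go6983. Only *Cldn12* was higher there.

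All 3 listed guidance receptors were higher. *Unc5a*, a netrin receptor, had 58.7 and 43.9 normalized counts in NT and 186 and 172 with Go6983 (log2 fold change 1.80, SE 0.233, limma adjusted p = 0.00111). *Unc5d*, of the same family, had 41.8 and 105 in NT and 165 and 154 with Go6983 (log2 fold change 1.25, SE 0.435, limma adjusted p = 0.0321). As with *Ntn1*, NT replicate 2 lay nearer the treated samples, and without NT replicate 1 the log2 fold change of *Unc5d* was 0.60 (limma adjusted p = 0.0503). *Epha7*, a receptor of A-type ephrins, had 437 and 349.5 in NT and 732 and 900.2 with Go6983 (log2 fold change 1.05, SE 0.169).

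**Figure D4:**
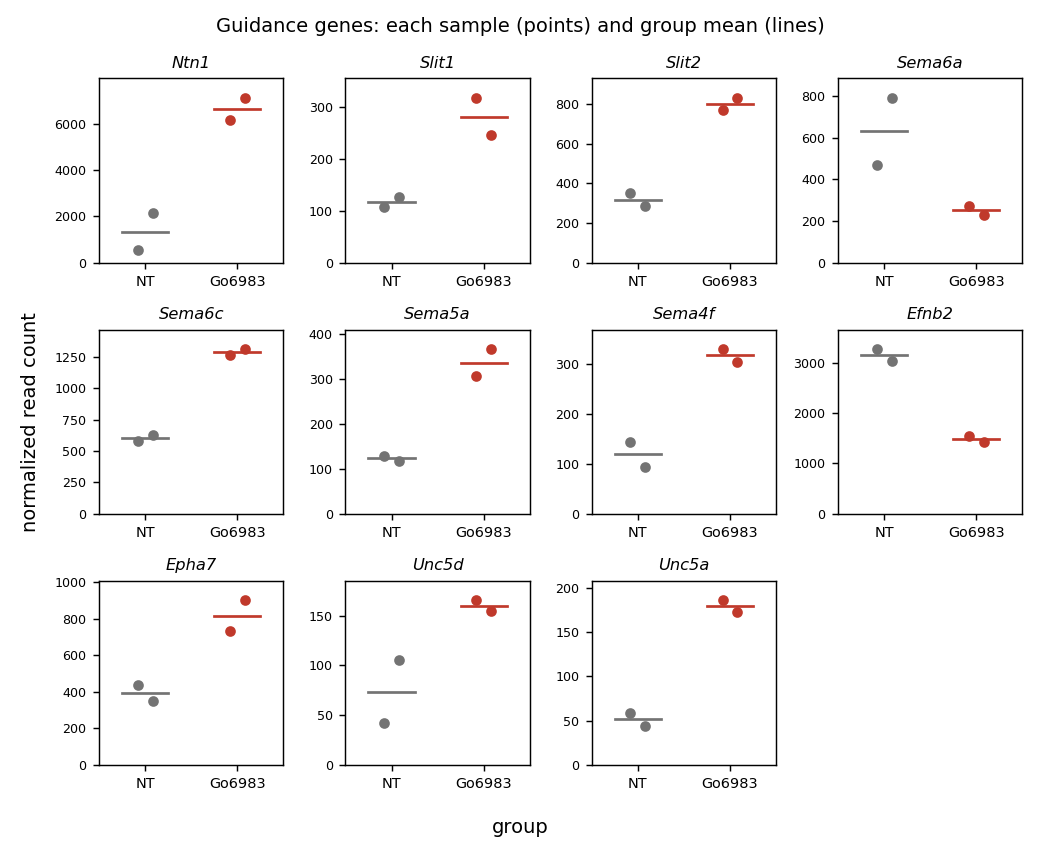
Normalized read counts (y axis, linear, a scale for each gene) of the guidance ligands and receptors in the NT and Go6983 samples (x axis). Points are samples and lines are group means (n = 2 per group). *Sema6a* and *Efnb2* are the panels that fall, and the 2 NT points of *Ntn1* lie 3.77-fold apart.

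**Figure D5:**
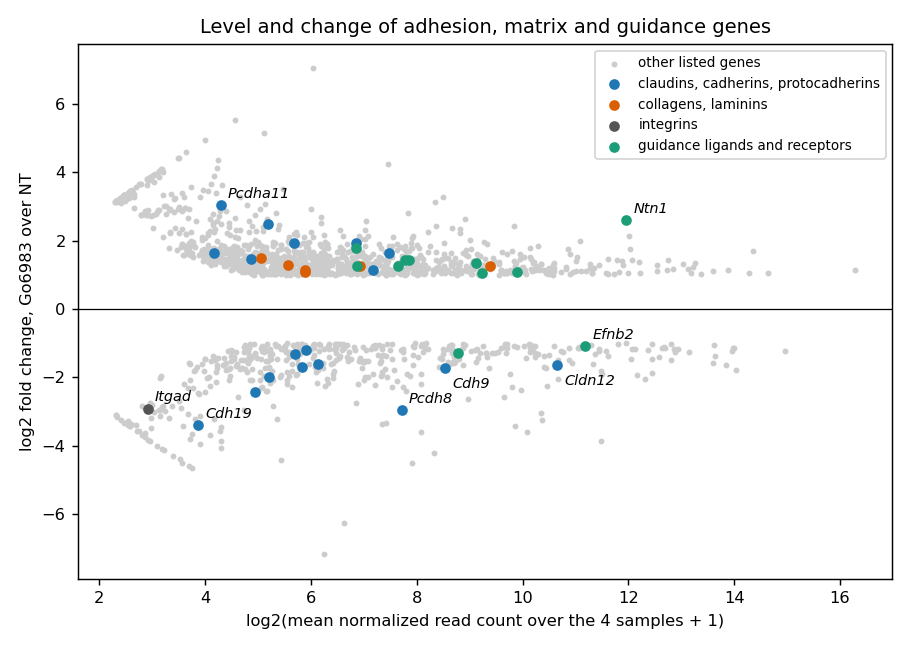
Log2 fold change (y axis) against the log2 of the mean normalized read count + 1 over the 4 samples (x axis) for the 1577 listed genes (grey) and the 36 adhesion, matrix and guidance genes (coloured by group). No listed gene lies near 0 on the y axis, because the table was selected for change, and the coloured points lie within the range of the grey ones.

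Each fit rests on 2 samples per group. Leaving out either Go6983 sample left 8 or 7 genes called higher and 7 or 5 called lower, while the share of all listed genes called fell to 47.5% and 43.8%. Leaving out an NT sample left 21 or 19 higher and 9 or 8 lower, with 73.9% and 74.1% of all listed genes called. The call held in each of these 4 cases for 11 of the 36 genes, namely *Cldn12*, *Cdh9*, *Pcdh8*, *Pcdha6*, *Pcdha11*, *Col20a1*, *Slit1*, *Slit2*, *Sema5a*, *Sema6c* and *Efnb2*.

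Other genes of the same structures were taken from 9 lists, in which 25 of 244 symbols had values. Of these, 18 were higher (72%) and 7 were lower, beside 68.8% and 29.7% of all listed genes called in each direction. Their median log2 fold change was 1.15, beside 1.21 over all listed genes. No other tight junction gene (0 of 17) and no adherens junction gene (0 of 15) has a value here. For desmosomes, 3 of 13 genes were listed and all were higher. *Dsg2*, a desmosomal cadherin, had 2661 and 2572 normalized counts in NT and 6496 and 6992 with Go6983 (log2 fold change 1.37, limma adjusted p = 0.000388). *Dsp*, the plaque protein that ties desmosomes to keratin filaments, and *Dsc3* had log2 fold changes of 1.30 and 1.27. *Dsc3* was low in all samples, at 10.9 and 14.3 normalized counts in NT and 34.5 and 28.9 with Go6983 (SE 0.368).

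Among the gap junction genes, *Gja1*, the most widely expressed connexin, had 18745 and 17321 normalized counts in NT and 10503 and 4693 with Go6983 (log2 fold change -1.36, SE 0.358, limma adjusted p = 0.0132), with a wider gap between its Go6983 samples than between its NT samples. *Gja4*, a connexin of the vessel wall, was higher, with a log2 fold change of 1.497.

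In the list of other basement membrane and matrix genes, 6 of 43 were listed, 5 higher and 1 lower. *Fn1*, which encodes fibronectin, had 52241 and 47719 normalized counts in NT and 109259.9 and 111821 with Go6983 (log2 fold change 1.15, limma adjusted p = 0.000447). *Fras1* (1.20), *Tnxb* (1.91) and *Bcan* (1.05) were higher on the log2 fold change scale, and the 1 lower gene, named after its value was seen, was *Thbs2* (-1.42). Of 54 matrix enzymes 3 were listed, *Adamts3* and *Adamts20* higher and *P3h2*, a collagen prolyl hydroxylase, lower (log2 fold change -1.08). Of 26 integrin adaptors 2 were listed, the scaffold *Bcar1* lower (-1.01) and *Parvg* higher (1.20).

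Among guidance co-receptors and neural adhesion genes, 6 of 44 were listed, 4 higher and 2 lower. *Ncam1*, *Cntnap2*, *Cntnap1* and *Nlgn3*, which encode neural adhesion proteins, had log2 fold changes of 1.07, 1.11, 1.13 and 1.88. *Nlgn3* was low in NT, at 21.9 and 17.4 normalized counts, and uneven with Go6983, at 49.5 and 111.3 (SE 0.460). The 2 that were lower, *Nrxn3* (-1.23) and *Slitrk2* (-1.51), were named after their values were seen. Of 16 factors of epithelial to mesenchymal transition 1 was listed, *Grhl2*, which maintains epithelial junction genes. It had 4854 and 4091 normalized counts in NT and 1398 and 1156 with Go6983 (log2 fold change -1.81, limma adjusted p = 0.000428).

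RefSeq promoter windows, the first listed for each gene, matched 24 of the 36 genes. The median number of CG dinucleotides in the 250 bases before the start was 11.5 (range 0 to 30), against 6 over 27025 promoters. These promoters were not filtered by gene type, while the 24 genes are all protein-coding, so the sets are not alike. The median was 13 for the 16 matched genes that were higher and 11.5 for the 8 that were lower. Searched on both strands, the letters CCAAT were in 12 of the 24 windows (50%), of which 6 belonged to the 8 genes that were lower, and in 34.5% of all promoters. TATAAA was in 3 windows (12.5%), against 13.0% of all promoters. CACGTG was in 0 of the 24 windows and in 6.05% of all promoters, and the Grainyhead motif AACCGGTT in 0 of 24 and 0.122%. At so low a share, 24 windows could hardly have held AACCGGTT, so its absence tells nothing of these genes. None of these motifs contains another as searched, and whether their matches overlap was not examined. These are matches of letters and say nothing of binding.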

How the data were processed

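Total RNA of 46C mESCs was sequenced in 2 NT and 2 Go6983 samples. The authors deposited log2 values per sample, group means, and their own log2 fold changes, p-values and adjusted p-values, of which only the log2 values per sample were used. Undoing log2 and an added 1 gave whole reads for 100% of values within 0.05, with size factors of 0.934 to 1.071. Bowtie 0.12.2 and mm9 are listed in the processing notes of the submitters. The counter, annotation, normalization tool and strandedness were not given in the sources used here. Symbols and coordinates were taken from GENCODE M21 by gene ID (1572 of 1577 matched).

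Fold changes were fitted on the log2 values as deposited with limma 3.58.1 in R 4.3.3 (eBayes with trend, no filter, no block), and adjusted by Benjamini-Hochberg over 1577 genes. The step was tested on simulated data in which most genes were unchanged. The listed genes were all selected for change, so the rate of false calls among them was not tested. The 36 genes and all lists were chosen with earlier results of these data known. All 36 were named. Those with a mean of 50 or more normalized counts in the higher group were given per sample, and up to 4 genes per list were taken by smallest p, with some gap junction results not reported here. Levels per kb divide by the union of exons. Counting intervals are exact at 95%. Alternatives were other pseudocounts, filters, scalings, call rules, limma without trend, limma-voom, a replicate block and each replicate left out. Replicates differed by more than counting error (chi-square per gene 9.75 in NT, 7.33 with Go6983). Figures were drawn with matplotlib 3.10.9.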

Additional observations from a re-analysis of the deposited data

How the results depend on the processing

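The direction of each of the 36 genes was the same in every alternative that gave it a value. At 4-fold and an adjusted p below 0.05, 3 genes were higher and 4 lower in place of 23 and 13, with 2 and 3 in cell-cell adhesion, 0 higher in matrix, and 1 and 0 in guidance, since the rule asks for a larger change. A filter at a mean of 50 left 4 cell-cell adhesion genes higher in place of 8, and filters at 10 and 50 left 0 integrin genes in place of 1, because low genes were removed. With each replicate left out, where a lone sample is assumed to vary like the other group, the genes higher ranged from 7 to 21 and lower from 5 to 9. In cell-cell adhesion they ranged from 2 to 7 and from 4 to 6, in matrix from 1 to 6 higher, in the integrins from 0 to 1 lower, and in guidance from 4 to 9 higher and from 1 to 2 lower. The cause of these lower counts was not tested.

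With the replicate number as a block, 22 genes were higher and 13 lower, and *Col23a1* lost its call, with 97.4% of all listed genes called. Same-numbered samples did not deviate together (correlation 0.032 over all listed genes), so the numbers were not taken as a pairing. Scaling each library to an equal total over the listed genes moved the median of all genes by -0.13 on the log2 scale, and the 36 genes kept their directions. *Cldn19* lost its call without a size factor and without the trend, *Unc5d* without the trend, and *Col23a1* in 5 alternatives besides left-out replicates and the 4-fold rule. The cause was not tested. Total depth is unknown. The 7 genes below 50 normalized counts rest on few reads, but they were not always the least precise. Standard errors were large in *Cdh19* (0.849), which is below 50, and in *Cldn19* (0.663) and *Ntn1* (0.580), which are above. They were smaller in *Lama2* (0.361) and *Cldn20* (0.364), which are below.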

Other observations

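The spread between the NT samples was widest for *Ntn1* among abundant genes. Of 249 listed genes that averaged 500 or more normalized counts, 5 had NT samples over 2-fold apart, against 1 with Go6983 samples over 2-fold apart. *Ntn1* ranked 1 of the 249, at 3.77-fold. *Ppm1h*, a protein phosphatase gene chosen after its values were seen, ranked 3, with 134 and 433 in NT and 821.5 and 1079 with Go6983, so its NT replicate 2 also lay nearer the treated samples. In *Zfp62* and *Csnk1g1*, which ranked 2 and 4, NT replicate 2 lay farther from them, with 994.5 and 3442.5 in NT against 524 and 607 with Go6983, and 1348 and 3722.5 against 955 and 913. *Dixdc1*, chosen in the same way and a gene of Wnt signalling, ranked 5 with the NT samples in the opposite order, at 642.5 and 265 in NT and 1350 and 1321 with Go6983. Among the 36 adhesion, matrix and guidance genes, 6 (16.7%) had NT samples over 2-fold apart, against 11.5% of all listed genes. In *Ntn1*, *Unc5d* and *Pcdhga10* NT replicate 2 was the higher NT sample, and in *Cldn19*, *Col23a1* and *Pcdhb2* it was the lower one.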
